A study of Homo sapiens with 6 samples.

Results

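The integrin and laminin genes are those of 37 named members: 24 integrin chains, 10 laminin chains, the 2 nidogens and perlecan. Every probe set that the array annotation assigns to a single one of these symbols was taken, which gave 93 of the 54675 probe sets in the table and covered 35 of the 37 genes. ITGB6 and LAMA3 had no such probe set, so their expression was not analysed here. The samples were tumours of U87-EV, grown under the skin of female BALB/c SCID mice that were 6 to 8 weeks old at implantation. U87 cells are a long-used line from a human glioblastoma, and the labels leave EV unexplained. All cells were implanted with Matrigel, a basement membrane extract, so both groups share it. In the bevacizumab group (3 arrays) the mice received the antibody, which binds human vascular endothelial growth factor A, into the peritoneum at 10 mg/kg every 3 days, and in the control group (3 arrays) they received saline. Dosing began at a tumour volume of 150 to 200 mm3 and ran until tumours measured about 15 to 30 mm.

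Integrins are cell surface receptors made of one alpha and one beta chain, and they tie the cytoskeleton to the matrix outside the cell. Laminins are trimers of an alpha, a beta and a gamma chain that form the sheet-like core of basement membranes. Nidogens link the laminin sheet to the collagen IV network, and perlecan, a large heparan sulfate proteoglycan, binds to both and holds growth factors. In tumours, blood vessels lie on such basement membranes, and glioma cells use integrins to move along them.

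Values are deposited log2 expression values, so a difference of 1 is a change of 2-fold. For each gene the probe set with the highest mean stood for the gene, and a gene entered the test where its mean over the 6 arrays reached 4. Array medians ran from 2.49 to 2.51, and 33.4% to 34.3% of the probe sets of an array lay at the lowest value of the table, 2.23. Of 10 markers of the line, VIM, CD44, NES, SPARC and FABP7 were tested, while the glial markers GFAP, S100B, OLIG2 and PTPRZ1 were under 4 on every array. NES fell by 1.18 and the other 4 tested did not pass. The share called was 20%, against 19.1% of all tested genes. SOX2, under the filter, read 4.30, 3.76 and 3.61 on bevacizumab arrays 1, 2 and 3, against 2.84, 3.58 and 2.82 on control arrays 1, 2 and 3. VEGFA, the target of the antibody, read 14.27, 13.78 and 14.20 on bevacizumab arrays 1, 2 and 3, against 12.63, 12.54 and 12.89 on control arrays 1, 2 and 3, and rose by 1.40 (SE 0.17, limma adjusted p = 0.00609). The human probes did not separate RNA of the mouse host from that of the tumour, and fewer cells of a type cannot be told apart from less RNA per cell. How well these probes read mouse RNA was not tested. Low values of cell type markers therefore do not show that such host cells were few. Each group started with 5 mice, and which of their tumours were put on the arrays is not stated. Whether every array stands for a separate mouse is not stated either, so the p-values reflect array-to-array spread, which may be technical. The 3' minus 5' difference of the ACTB control probe sets, a sign of RNA quality, was 1.81 ± 0.16 after bevacizumab and 1.38 ± 0.26 in controls (SD, n = 3 each; exact permutation p = 0.2, two-sided, smallest possible 0.1), and the groups overlapped. For GAPDH the same difference was -0.06, -0.01 and 0.01 on bevacizumab arrays 1, 2 and 3, against -0.11, -0.11 and -0.14 on the controls. Here the groups did not overlap, with a difference of 0.10 and an exact permutation p of 0.1, the smallest that 3 against 3 arrays allow. The part of RNA quality in the changes below was not tested apart from the ACTB covariate.

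Of the 35 genes with a probe set, 26 were bright enough to test and 9 were under the filter. ITGA5, ITGB8, LAMB2 and HSPG2 rose and ITGA1, LAMA1 and NID1 fell in bevacizumab tumours, and the other 19 did not pass an adjusted p of 0.05 (limma, Benjamini-Hochberg over 10233 genes). These 7 are 26.9% of the tested members, while 19.1% of all tested genes passed, 9.09% higher and 9.97% lower. Bevacizumab and control arrays were fully apart in 14 of the 26 members, 9 higher and 5 lower, against 41.0% of all tested genes (19.0% higher and 22.0% lower). The median log2 fold change was 0.15 over the members and -0.01 over all tested genes. A difference of at least 1 in either direction was seen in 6 members (23.1%), against 6.53% of all tested genes. By probe set, 7 of 45 tested passed (15.6%), 3 higher and 4 lower, against 15.4% of all probe sets tested (7.43% higher and 7.96% lower). In 20 of these 45 the arrays were fully apart, 10 in each direction, against 39.0% of all probe sets tested (18.3% higher and 20.7% lower). The calls were sensitive to single arrays: without control 2 no member passed, although 4 were higher and 5 lower at an unadjusted limma p under 0.05, and without bevacizumab 1 there were 8 higher and 5 lower. Without control 1 there were 0 higher and 1 lower, without control 3 there were 0 higher and 3 lower, without bevacizumab 2 there was 1 in each direction, and without bevacizumab 3 there were 0 higher and 4 lower. Over all tested genes the counts moved too, to 296 higher and 262 lower without control 2 and to 1140 and 934 without bevacizumab 1. With all 6 arrays, 15 of the 26 members had an unadjusted limma p under 0.05, as did 3664 of the 10233 tested genes. With the ACTB difference as a covariate no member passed with limma (6 higher and 3 lower at an unadjusted p under 0.05), and of all tested genes 13 were higher and 11 lower. In that fit the log2 fold changes of the called members were 1.58 for ITGA5, 0.33 for ITGB8, 1.25 for LAMB2, 1.65 for HSPG2, -1.06 for ITGA1, -2.64 for LAMA1 and -1.40 for NID1, so ITGB8 was the one of the 7 that moved by more than 1.5 times.

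**Figure D1:**
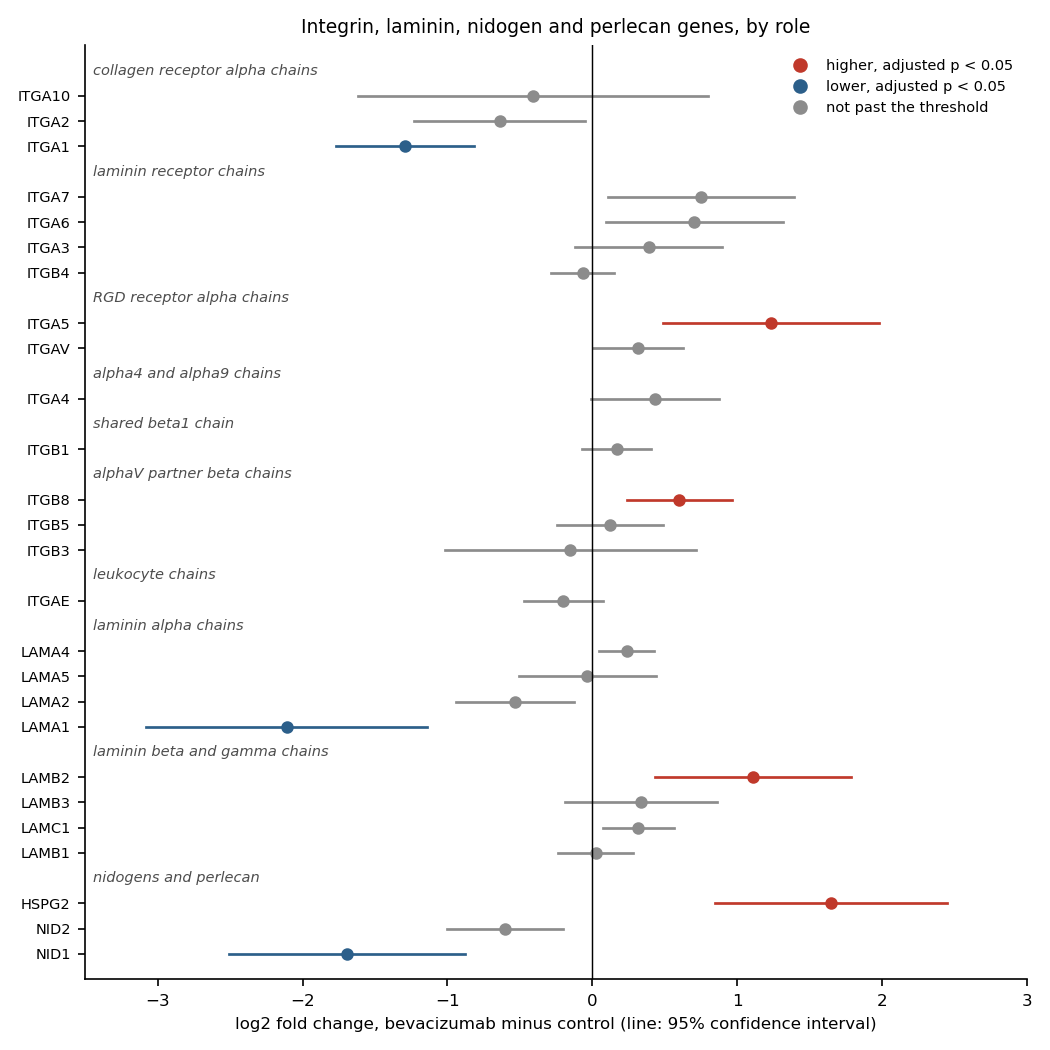
Log2 fold change (bevacizumab minus control, horizontal axis) of the 26 tested members, grouped by role, with 95% confidence intervals of the limma fit; red genes were higher, blue genes lower and grey genes did not pass an adjusted p of 0.05. HSPG2 at 1.65 and LAMA1 at -2.11 mark the ends of the range.

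Among the alpha chains that bind collagen, ITGA1 fell. It encodes the alpha1 chain, which with beta1 binds collagen IV among other collagens. ITGA1 read 5.73, 6.06 and 5.55 on bevacizumab arrays 1, 2 and 3, against 7.38, 7.03 and 6.80 on control arrays 1, 2 and 3. All bevacizumab arrays lay under all controls. The log2 fold change was -1.29 (SE 0.20, limma adjusted p = 0.0109), a fall of 2.44-fold, and the other tested probe set of ITGA1 gave -1.19. The call was lost without control 2 (adjusted p = 0.0509), and over the 16 alternatives the adjusted p ran from 0.00528 to 0.126. ITGA2, the alpha2 chain of another collagen receptor, read 8.32, 7.56 and 7.47 on the bevacizumab arrays, against 8.44, 8.25 and 8.58 on the controls. Bevacizumab 1 lay among the controls and the other two below them, and the difference of -0.64 did not pass (95% confidence interval -1.23 to -0.05, adjusted p = 0.118). Without bevacizumab 1 it was -0.91, with an adjusted p of 0.015 (0.015 to 0.364 over its alternatives). ITGA10 differed by -0.41 with an interval from -1.62 to 0.80, and ITGA11 was under the filter.

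Chains that bind laminin had positive differences in 3 of 4 genes, none past the threshold with limma and 2 of them at an unadjusted p under 0.05. Of all 10233 tested genes, 4948 had a positive difference, and 3664 had an unadjusted limma p under 0.05 in either direction. With 4 genes, these counts do not show a shared direction of the group. ITGA7, the alpha7 chain known from muscle, read 9.55, 10.57 and 10.16 on bevacizumab arrays 1, 2 and 3, against 9.55, 9.28 and 9.20 on the controls. Bevacizumab 1 lay just above control 1, and bevacizumab 2 and 3 stood apart. The difference was 0.75 (95% confidence interval 0.11 to 1.39, adjusted p = 0.0971), and the second probe set gave 0.70. Without bevacizumab 1 the adjusted p of ITGA7 was 0.0227, and it ran from 0.0227 to 0.325 over the alternatives. ITGA6, the alpha6 chain, read 6.31, 5.61 and 6.33 after bevacizumab, against 5.01, 5.52 and 5.59 in controls, a difference of 0.71 (interval 0.09 to 1.32, adjusted p = 0.102). Here bevacizumab 2 was the array nearest the controls. ITGA3, the alpha3 chain, differed by 0.39 (interval -0.12 to 0.90), and its groups overlapped. Without bevacizumab 1 the difference of ITGA3 was 0.62 with an adjusted p of 0.027, and without bevacizumab 2 it was 0.21 (0.027 to 0.547 over the alternatives). ITGB4, which pairs with alpha6 in the hemidesmosomes of epithelia, was at 4.43 on every bevacizumab array and at 4.43, 4.62 and 4.43 on the controls. Its other probe sets read 2.23 to 2.24 on all arrays and were under the filter, so whether ITGB4 was detected is unclear.

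Among receptors for the RGD motif of fibronectin and vitronectin, ITGA5 rose. The alpha5 chain forms the classical fibronectin receptor with beta1. ITGA5 read 10.62, 11.34 and 11.88 on bevacizumab arrays 1, 2 and 3, against 9.92, 10.13 and 10.08 on control arrays 1, 2 and 3. The bevacizumab arrays were all higher and spread over more than 1 unit, while the controls lay close together. The log2 fold change was 1.23 (SE 0.31, limma adjusted p = 0.04), or 2.35-fold. With a single array left out, it passed in 1 fit of 6, the one without bevacizumab 1 (1.56, adjusted p = 0.0118). In the other fits of that kind the adjusted p was 0.0588 without bevacizumab 3, 0.11 without bevacizumab 2, and 0.129, 0.112 and 0.105 without control 1, 2 or 3; over all alternatives it ran from 0.0118 to 0.182. ITGAV, the alphaV chain shared by several receptors, read 12.86, 12.78 and 13.12 after bevacizumab, against 12.52, 12.52 and 12.77 in controls. The groups did not overlap, yet the difference of 0.32 did not pass (interval 0.01 to 0.63, adjusted p = 0.134). ITGA8 was under the filter.

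Of 3 tested beta chains that pair with alphaV, ITGB8 rose and ITGB3 and ITGB5 did not pass. ITGB8, whose product pairs with alphaV and releases TGF-beta from its latent complex, read 11.55, 11.15 and 11.11 on bevacizumab arrays 1, 2 and 3, against 10.62, 10.57 and 10.81 on control arrays 1, 2 and 3. All bevacizumab arrays were above the controls, and ITGB8 rose by 0.60 (SE 0.15, limma adjusted p = 0.0393), or 1.52-fold. This call, too, held in 1 of the 6 fits without an array (without bevacizumab 1, adjusted p = 0.0459). The adjusted p was 0.125, 0.128 and 0.072 without control 1, 2 or 3 and 0.0737 and 0.0517 without bevacizumab 2 or 3. ITGB8 had 4 more probe sets, all under the filter, and with the mean of all 5 the difference was 0.09 (adjusted p = 0.435, the highest over its alternatives, which began at 0.0238). ITGB5 differed by 0.12 on its brightest probe set (interval -0.24 to 0.49). A second probe set of ITGB5 gave 0.53 with the groups apart, and it did not pass over all probe sets tested (adjusted p = 0.0964), while the remaining tested probe set gave 0.09. ITGB3, a chain of the vitronectin receptor, differed by -0.15 on its brightest probe set (interval -1.02 to 0.72), while its other 3 tested probe sets gave 0.10 to 0.44.

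ITGB1, the beta1 chain shared by most of the matrix receptors above, read 14.43, 14.31 and 14.50 after bevacizumab, against 14.28, 14.12 and 14.32 in controls. The groups overlapped, and the difference was 0.17 (95% confidence interval -0.07 to 0.41, adjusted p = 0.26). Its other 2 tested probe sets gave 0.10 and -0.06. Of 22 known pairs of alpha and beta chains among the members, 13 had both chains tested, and in 0 of the 13 did both chains pass. Most of the 13 hold ITGB1 or ITGAV, neither of which passed, so the pairs are not separate observations. Of all tested genes, 19.1% passed. For alpha5 with beta1 and alpha1 with beta1, the alpha chain passed and ITGB1 did not, and for alphaV with beta8, ITGB8 passed and ITGAV did not. ITGA4, the alpha4 chain known from leukocytes and neural crest, differed by 0.43 (interval -0.01 to 0.87), and of its 4 probe sets 2 were positive and 2 negative. Without bevacizumab 1 ITGA4 passed as well (adjusted p = 0.0331; 0.0331 to 0.446 over the alternatives).

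Chains typical of leukocytes were at the bottom of the scale. ITGAL, ITGAM, ITGAX, ITGB2 and ITGB7, which form the receptors of lymphocytes, neutrophils and macrophages, were under 4 on every array, as were ITGA8, ITGA9, ITGA11 and LAMC3. These 9 genes have 23 probe sets, whose values ran from 2.23 to 3.61. Leukocyte markers were low too, with 9 of 10 under 4 on every array, among them PTPRC, CD14 and CSF1R. The mean over this marker list was 2.72 to 2.76 after bevacizumab and 2.67 to 2.76 in controls. ITGAE, the alphaE chain of lymphocytes within epithelia, was the exception, at 9.58, 9.85 and 9.61 after bevacizumab, against 9.86, 9.99 and 9.78 in controls. Its difference of -0.20 did not pass (interval -0.47 to 0.07, adjusted p = 0.25), and its partner ITGB7 stayed at 3.61 on all 6 arrays.

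Of the laminin alpha chains, LAMA1 fell. LAMA1 encodes alpha1, the chain of the earliest embryonic basement membranes. LAMA1 read 6.04, 6.84 and 6.88 on bevacizumab arrays 1, 2 and 3, against 8.31, 8.28 and 9.50 on control arrays 1, 2 and 3. Every bevacizumab array was more than 1 unit under every control, and control 3 was the highest. The log2 fold change was -2.11 (SE 0.40, limma adjusted p = 0.0193), a fall of 4.32-fold. Without control 3 it was -1.71 (adjusted p = 0.0366); the call was lost without control 1 (0.0566), control 2 (0.0543) or bevacizumab 2 (0.053), and over the alternatives the adjusted p ran from 0.00779 to 0.111. The other probe set of LAMA1 was under the filter, and the mean of both gave -1.06.

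LAMA2, the alpha2 chain of muscle and nerve basement membranes, read 7.30, 6.82 and 6.96 after bevacizumab, against 7.78, 7.36 and 7.55 in controls. The groups did not overlap, but the difference of -0.53 did not pass (interval -0.94 to -0.13, adjusted p = 0.0747). Its 3 tested probe sets ran from -0.66 to -0.53, and it passed without bevacizumab 1 (adjusted p = 0.0403; 0.0403 to 0.324 over the alternatives). LAMA4, the alpha4 chain of endothelial and muscle basement membranes, read 10.11, 10.12 and 10.17 after bevacizumab, against 9.85, 9.88 and 9.95 in controls. Its brightest probe set differed by 0.24 (interval 0.05 to 0.43, adjusted p = 0.0816), while the other 2 tested gave -0.00 and -0.10. LAMA5, the alpha5 chain of most adult basement membranes, read 9.20, 9.61 and 8.85 after bevacizumab, against 9.21, 9.21 and 9.36 in controls. Bevacizumab 2 was above and bevacizumab 3 below all controls, with a difference of -0.03 (interval -0.51 to 0.44).

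LAMB2 rose among the beta and gamma chains. Its product, beta2, is known from synapses, kidney filters and vessel walls. LAMB2 read 6.59, 7.74 and 7.19 on bevacizumab arrays 1, 2 and 3, against 6.09, 6.05 and 6.05 on control arrays 1, 2 and 3. The controls differed little, and bevacizumab 1 stood nearest to them. The log2 fold change was 1.11 (SE 0.28, limma adjusted p = 0.041), or 2.16-fold, and over all probe sets tested the same probe set had an adjusted p of 0.0505. The call held without bevacizumab 1 (1.40, adjusted p = 0.0127) and was lost without bevacizumab 2 (0.063), bevacizumab 3 (0.098) or control 1, 2 or 3 (0.12, 0.122 and 0.111); over the alternatives the adjusted p ran from 0.0127 to 0.185. LAMB1, the common beta1 chain, read 12.59, 12.37 and 12.44 after bevacizumab, against 12.59, 12.35 and 12.40 in controls. The ranges nearly coincided, and the difference was 0.02 (interval -0.23 to 0.28). LAMC1, the gamma1 chain found in most laminins, read 11.75, 11.88 and 12.03 after bevacizumab, against 11.61, 11.52 and 11.58 in controls. Its difference of 0.32 did not pass (interval 0.08 to 0.56, adjusted p = 0.0744), and its second probe set gave 0.05. LAMC1 passed without bevacizumab 1 (adjusted p = 0.0483; 0.0483 to 0.317 over the alternatives). LAMB3, a chain of the epithelial anchoring laminin, differed by 0.34 (interval -0.19 to 0.86).

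**Figure D2:**
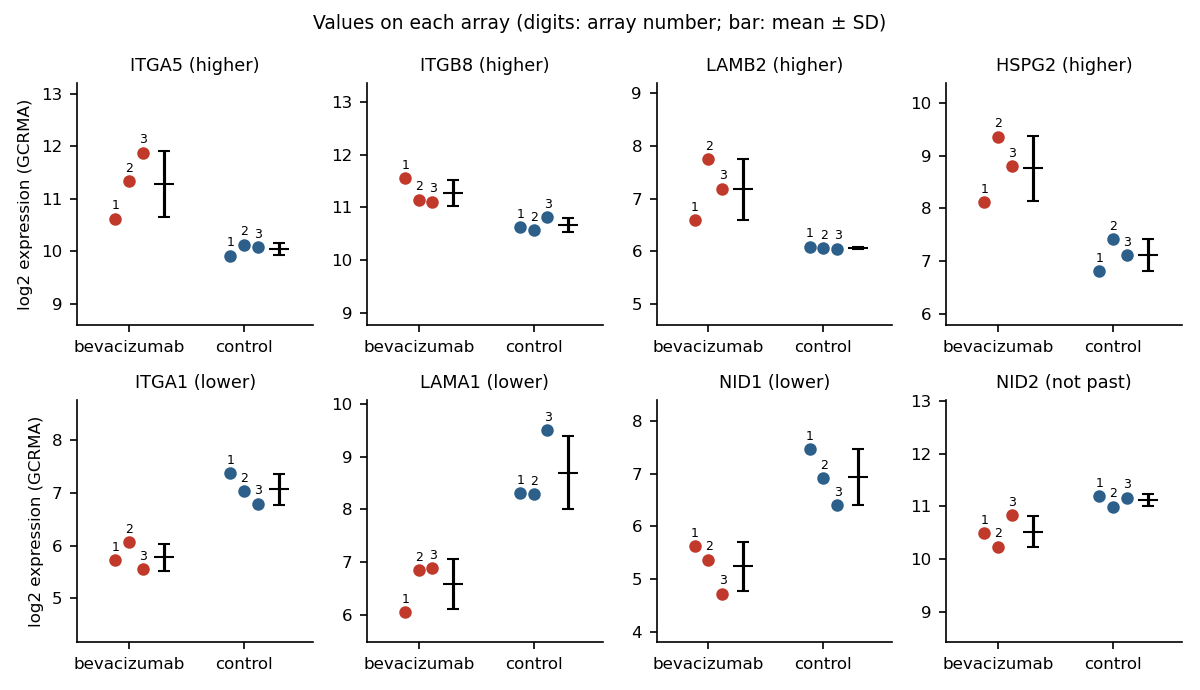
Log2 expression on each array for the 7 members past the threshold and for NID2, with bevacizumab arrays in red to the left of control arrays in blue; bars give mean ± SD of 3 arrays and all panels span the same number of log2 units. In each panel the groups do not overlap, and LAMA1 has the widest gap between the means, 6.59 against 8.70.

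The linkers of the basement membrane moved in both directions. HSPG2, perlecan, read 8.11, 9.36 and 8.80 on bevacizumab arrays 1, 2 and 3, against 6.80, 7.41 and 7.11 on control arrays 1, 2 and 3. The lowest bevacizumab array was above the highest control, and the mean was 8.76 ± 0.62 after bevacizumab and 7.11 ± 0.30 in controls (SD, n = 3 each). HSPG2 rose by 1.65 (SE 0.33, limma adjusted p = 0.0228), or 3.14-fold. Its second probe set read 2.23 on all arrays and was under the filter, and the mean of both gave 0.83. The call held without bevacizumab 1 (adjusted p = 0.0127) or bevacizumab 2 (0.0487) and was lost without bevacizumab 3 (0.0614) or control 1, 2 or 3 (0.0838, 0.0611 and 0.0734); over the alternatives it ran from 0.0124 to 0.161.

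NID1, nidogen 1, read 5.62, 5.37 and 4.72 on bevacizumab arrays 1, 2 and 3, against 7.47, 6.91 and 6.40 on control arrays 1, 2 and 3. All bevacizumab arrays lay below all controls. NID1 fell by 1.69 (SE 0.34, limma adjusted p = 0.0224), or 3.23-fold. The call was lost without control 1 (0.0682), control 2 (0.0791) or bevacizumab 2 (0.064), and over the alternatives the adjusted p ran from 0.00954 to 0.2. NID1 had 2 more probe sets, both under the filter. NID2, nidogen 2, read 10.49, 10.23 and 10.83 after bevacizumab, against 11.19, 10.99 and 11.17 in controls. The groups did not overlap, and the difference of -0.60 did not pass (SE 0.16, adjusted p = 0.0522). It passed without bevacizumab 3 (adjusted p = 0.0272), and 5 of the 16 alternatives gave a call, with a range of 0.0272 to 0.363.

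For markers of mural cells, the pericytes and smooth muscle cells that wrap vessels, the mean over the list was lower on the bevacizumab arrays than on the controls. Of the 10 on the list, 8 had a mean of at least 4 and MYH11 and DES were under 4 on every array. That mean was 6.04 to 6.61 on the bevacizumab arrays and 7.02 to 7.06 on the controls. RGS5 fell by 2.85 and ACTA2 fell by 1.79 (limma adjusted p = 0.0022 and 0.00407). KCNJ8 also passed, but it reached the filter only through the controls: it read 2.78, 3.52 and 3.13 after bevacizumab, against 5.37, 6.15 and 5.47 in controls, and no fold is given. The 3 called are 37.5% of the 8 tested, against 19.1% of all tested genes. As KCNJ8 is counted in both numbers, this share follows in part from the filter. The other 5 did not pass and had both signs. PDGFRB differed by 0.30 (limma adjusted p = 0.176), MCAM by 0.42 and CSPG4 by 0.16, against -0.76 for ABCC9 and -0.51 for NOTCH3. All tested markers of this list are named, and the list mean includes KCNJ8. Of 10 endothelial markers, 8 were under 4 on every array (CDH5, VWF, TIE1, ERG, ROBO4, CLDN5, EMCN and ESAM). PECAM1 averaged 6.39 after bevacizumab and 6.21 in controls, TEK averaged 5.85 after bevacizumab and 5.88 in controls, and neither passed (limma adjusted p = 0.298 and 0.917). For the endothelial list the mean was 3.17 to 3.26 after bevacizumab and 3.17 to 3.23 in controls. All 10 fibroblast markers were tested, and the mean over that list overlapped between the groups. In that list DPT rose by 2.26, POSTN fell by 1.16 and COL3A1 fell by 0.84 (limma adjusted p = 0.0105, 0.0113 and 0.0258). These are 30% of the 10 tested, against 19.1% of all tested genes, and the other 7 did not pass and had both signs. Epithelial markers were under 4 on every array in 7 of 8. The part of these markers in the changes of the members was not tested.

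The bevacizumab arrays did not stand at equal distance from the controls. Of the 3, bevacizumab 1 was the array nearest the control mean in 17 of the 26 tested members (65.4%), bevacizumab 2 in 5 and bevacizumab 3 in 4. Over all tested genes the shares were 44.3%, 30.4% and 25.3%. Of the 7 called members, ITGB8 and LAMA1 went the other way, with bevacizumab 1 farthest from the controls. In ITGA1 bevacizumab 2 was nearest and bevacizumab 3 farthest. In ITGA5 and NID1 bevacizumab 3 was farthest, and in LAMB2 and HSPG2 it was bevacizumab 2.

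**Figure D3:**
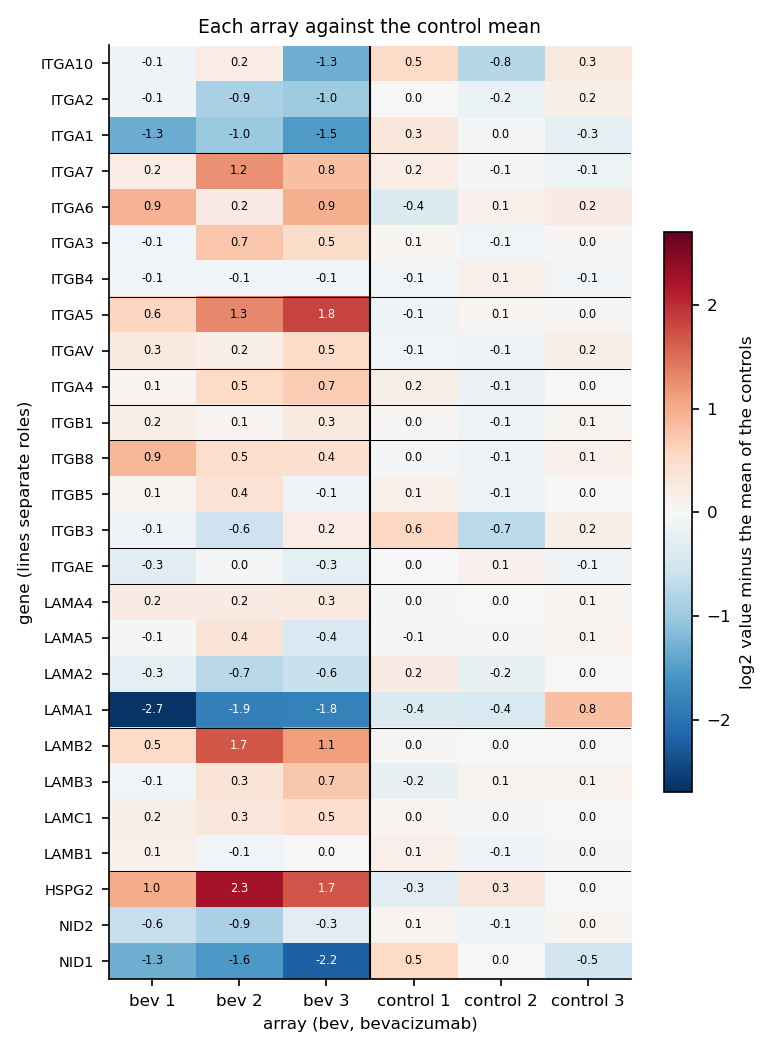
Log2 value of each tested member on each array minus the mean of the 3 controls, with bevacizumab arrays left of the black line and control arrays right of it; red is above and blue below the control mean, and thin lines separate roles. HSPG2 on bevacizumab 2 and LAMA1 on bevacizumab 1 are the strongest colours, while ITGB1, LAMB1 and LAMA4 are pale on every array.

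Where a gene had more than 1 probe set above the filter, these could be set side by side, although they share the same RNA and are not replicates. Of 11 such genes, 7 had all differences of one sign and 4 had both signs: ITGA4, ITGB1, ITGB3 and LAMA4. ITGA1 was the one gene of the 11 with any probe set past the threshold, and both of its tested probe sets passed (adjusted p = 0.0141 and 0.0151 over all probe sets tested). Of the other 6 called genes, each rested on a single probe set above the filter.

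**Figure D4:**
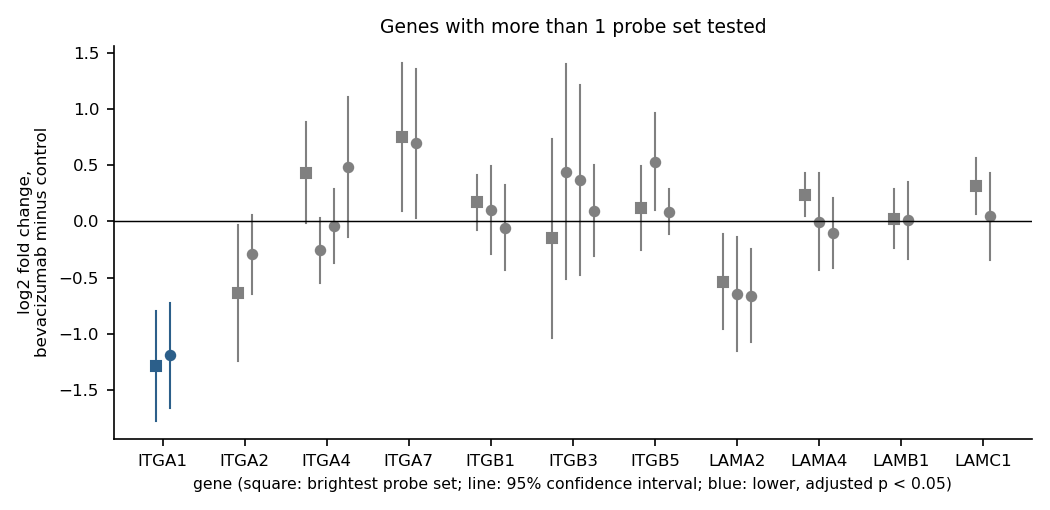
Log2 fold change (bevacizumab minus control, vertical axis) of each tested probe set of the 11 members with more than 1, with 95% confidence intervals of the limma fit by probe set; squares are the brightest probe set and blue marks an adjusted p under 0.05. Both probe sets of ITGA1 lie below -1, the 3 of LAMA2 lie close together, and the 4 of ITGA4 fall on both sides of 0.

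Promoters of the called members were searched for the core of the hypoxia response element, since VEGFA and other genes that respond to low oxygen are known to carry it. RefSeq promoter entries (GRCh38.p14) were found for 27 of the 37 members, among them ITGB6 and LAMA3, which had no expression value. The 250 bases before the annotated start were read, from the first entry of a gene with several. The core was taken as ACGTG or GCGTG on either strand. ACGTG was found in 2 of the 27 (7.41%), against 18.7% of 27305 promoters of the same length, and GCGTG in 6 (22.2%), against 31.9%. Of the members that rose, ITGA5 held 1 match and ITGB8 held 2, while HSPG2 and LAMB2 held 0. Of those that fell, ITGA1 and NID1 held 0 and LAMA1 had no entry. The promoters of both called integrin chains with a match are shown beside those of the linkers that rose and fell, 5′ to 3′ on the strand of the gene, with the matches in capitals. ITGB8 lies at chr7:20330650-20330899 on the plus strand, ITGA5 at chr12:54419267-54419516 on the minus strand, HSPG2 at chr1:21937311-21937560 on the minus strand and NID1 at chr1:236065091-236065340 on the minus strand.
ITGB8: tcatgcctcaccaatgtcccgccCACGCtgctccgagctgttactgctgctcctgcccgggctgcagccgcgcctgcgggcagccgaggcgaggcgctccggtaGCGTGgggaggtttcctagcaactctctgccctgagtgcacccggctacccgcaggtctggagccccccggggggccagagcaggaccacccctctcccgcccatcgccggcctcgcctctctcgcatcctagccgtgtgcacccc
ITGA5: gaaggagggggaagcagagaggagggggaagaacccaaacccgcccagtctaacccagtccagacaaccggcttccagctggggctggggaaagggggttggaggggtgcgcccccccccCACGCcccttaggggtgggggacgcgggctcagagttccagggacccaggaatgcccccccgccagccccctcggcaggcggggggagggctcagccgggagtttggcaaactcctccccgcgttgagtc
HSPG2: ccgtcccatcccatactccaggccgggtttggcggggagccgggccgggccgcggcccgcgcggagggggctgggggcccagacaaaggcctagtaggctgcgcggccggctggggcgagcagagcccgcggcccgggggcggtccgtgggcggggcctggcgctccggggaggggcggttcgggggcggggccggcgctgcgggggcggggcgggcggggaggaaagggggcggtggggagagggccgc
NID1: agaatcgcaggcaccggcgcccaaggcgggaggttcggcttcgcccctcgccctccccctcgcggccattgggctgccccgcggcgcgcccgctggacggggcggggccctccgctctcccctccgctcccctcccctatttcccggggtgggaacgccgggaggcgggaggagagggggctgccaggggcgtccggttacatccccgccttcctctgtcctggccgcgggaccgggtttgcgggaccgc
The GC box GGGCGG, on either strand, was found in 16 of the 27 member promoters (59.3%) and in 42.3% of all. Among the called members there were 8 matches in HSPG2, 2 in ITGB8, 1 each in ITGA5, LAMB2 and NID1 and 0 in ITGA1. These matches describe letters in the windows and show no binding. Bases outside the windows were not searched, so 0 matches do not show that a gene lacks the element.

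Genes around the members were followed through 4 lists. Among other basement membrane genes, 21 in all, 11 were tested, of which NTN4 rose, COL4A1, COL4A2 and HMCN1 fell and 7 did not pass. The share called was 36.4%, against 19.1% of all tested genes (9.09% higher and 9.97% lower), and the median was -0.08. COL4A1, the collagen IV chain, read 7.10, 7.93 and 9.11 on bevacizumab arrays 1, 2 and 3, against 10.86, 10.67 and 9.97 on control arrays 1, 2 and 3. Bevacizumab 3 lay closest to the controls, and the difference was -2.45 (SE 0.52, limma adjusted p = 0.0264). COL4A2 fell by 1.64 (adjusted p = 0.0381) and HMCN1, hemicentin 1, fell by 0.72 (adjusted p = 0.0373). NTN4, a netrin that binds laminin, rose by 1.47 (adjusted p = 0.0305). SMOC1, a calcium-binding matrix protein, differed by 1.32 (adjusted p = 0.0713) and AGRN, agrin, a heparan sulfate proteoglycan like perlecan, by 0.98 (adjusted p = 0.129); both were chosen after their values were seen. No gene of this list was lower in the fits without control 1, 2 or 3 or bevacizumab 2 (limma), although 3 were lower at an unadjusted p under 0.05 in each of these fits. Without bevacizumab 1 or 3 there were 2 lower, and none was higher without control 1, control 2 or bevacizumab 3 (limma; 1, 1 and 3 at an unadjusted p under 0.05).

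Among 16 tested integrin ligands, 4 rose, 2 fell and 10 did not pass. The share called was 37.5%, against 19.1% of all tested genes, and the median was 0.14. ICAM1, the ligand of leukocyte integrins, read 5.40, 5.81 and 5.63 after bevacizumab, against 3.23, 3.47 and 3.59 in controls. It reached the filter only through the bevacizumab arrays, so its call among the 4 follows in part from the filter, and no fold is given. FBN1, fibrillin 1, rose by 0.86 and LTBP1, which anchors latent TGF-beta to the matrix, by 0.62. THBS1, thrombospondin 1, fell by 1.26 (adjusted p = 0.0156). SPP1, osteopontin, an RGD ligand, rose by 1.57 and CCN2, connective tissue growth factor, fell by 1.09; both were chosen after their values were seen. Without control 1 none of the ligands was lower, with 2 lower at an unadjusted p under 0.05, and without control 2 or 3 or bevacizumab 2 or 3 there was 1.

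Of 8 tested laminin receptors that are not integrins and tetraspanins that sit beside integrins, 1 rose, none fell and 7 did not pass. The share called was 12.5%, against 19.1% of all tested genes, and the median was 0.24. SDC4, syndecan 4, a co-receptor of fibronectin-binding integrins, read 11.48, 11.43 and 11.25 after bevacizumab, against 10.60, 10.59 and 10.54 in controls. It rose by 0.81 (SE 0.09, limma adjusted p = 0.00559). The tetraspanin genes CD81 (0.64, adjusted p = 0.0719), CD82 (0.35, adjusted p = 0.0721) and CD151 (0.31, adjusted p = 0.251) did not pass. Without bevacizumab 1 there were 3 of the list higher.

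The adhesion complex, the proteins that bind integrin tails inside the cell, held 1 gene that passed. Of 22 tested, 1 fell, none rose and 21 did not pass with limma, with 2 higher and 2 lower at an unadjusted p under 0.05. The share called was 4.55%, against 19.1% of all tested genes, and the median was 0.13. FERMT1, kindlin 1, an activator of integrins, read 7.12, 6.99 and 7.22 after bevacizumab, against 7.89, 7.71 and 7.90 in controls. All bevacizumab arrays were lower, and FERMT1 fell by 0.72 (SE 0.10, adjusted p = 0.0092). LIMS1, the adaptor PINCH1, differed by 0.79 (adjusted p = 0.0501), PXN, paxillin, by 0.58 (adjusted p = 0.13) and TNS1, tensin 1, by -0.34 (adjusted p = 0.137). Without bevacizumab 1 there were 2 higher, and without bevacizumab 3 there was 1. The differences between these lists were not tested.

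**Figure D5:**
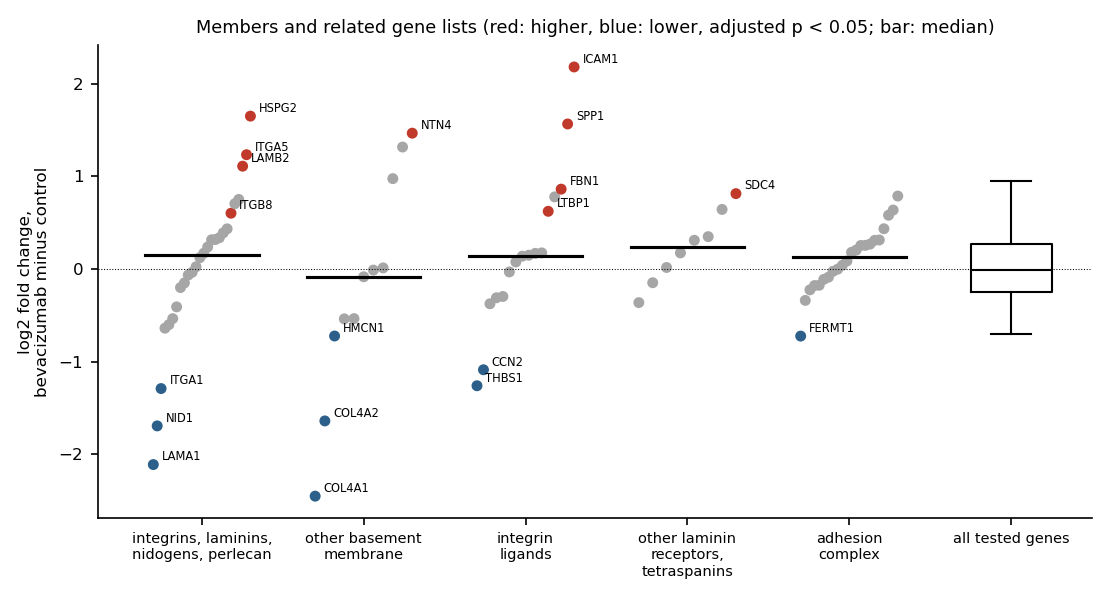
Log2 fold change (bevacizumab minus control) of each tested member and of each tested gene of the 4 lists, with genes past an adjusted p of 0.05 named and coloured, black bars at the medians, and a box plot of all 10233 tested genes (box, quartiles; whiskers, 5th to 95th percentile). The member and basement membrane columns reach furthest down, to -2.11 for LAMA1 and -2.45 for COL4A1, while the adhesion complex spans -0.72 to 0.79.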

How the data were processed

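RNA of 6 tumour samples was measured on one-colour Affymetrix human arrays, 3 per group. The authors deposited log2 expression values made with GCRMA, per the submitters' processing notes, which name GCOS 1.1.1.052 and GCRMA without a version; the log2 scale was read from the values and from the usual output of GCRMA. No scanner files were used here, and scan dates and batches are not given in the sources used here. Of 54675 probe sets, 41097 had 1 gene symbol in the platform annotation, 1801 had several and 11777 were not listed; gene identifiers matched the RefSeq gene table for 41043, which set the symbol. Each of 19775 genes was read from its brightest probe set, and 10233 with a mean of at least 4 were tested; 18475 probe sets were tested by the same filter. The comparison used limma 3.58.1 under R 4.3.3 (lmFit, eBayes, no covariate), two-sided, with Benjamini-Hochberg adjustment over all genes or probe sets and a threshold of 0.05. Fits were tested on simulated data. All tested members are named or counted, and in each other list up to 4 genes with the smallest p are named, with exceptions marked. The members and lists were chosen with earlier results of these data known. Alternatives were other filters, probe set rules, a floor at 4, a further quantile normalization, a trended prior, the replicate number as a block, the ACTB covariate and leaving out each array. The number of arrays limits the precision.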

Additional observations from a re-analysis of the deposited data

How the results depend on the processing

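The counts were not stable to all settings. Members by gene were 4 higher and 3 lower; without the filter they were 1 and 0, quantile normalization gave 5 lower, and the ACTB covariate gave 0 in either direction (6 and 3 at an unadjusted limma p under 0.05), with ITGB8 the one of the 7 called members whose log2 fold change moved by more than 1.5 times (0.33, against 0.60). By probe set, 3 higher and 4 lower became 0 and 0 both without the filter and with the ACTB covariate. Over all tested genes, 930 higher and 1020 lower became 267 and 331 without the filter and 13 and 11 with the ACTB covariate; over all probe sets, 1372 and 1470 became 284 and 340, and 13 and 8. For other basement membrane genes, both counts were 0 without the filter (2 and 3 at an unadjusted p under 0.05) and with the ACTB covariate (0 and 1), and the trended prior gave 2 higher. Integrin ligands had 0 lower without the filter (2 unadjusted), and 0 and 0 with the ACTB covariate (4 and 1 unadjusted). In the adhesion complex 1 was higher with the floor at 4, with quantile normalization and with the trended prior, 2 were lower with the most variable probe set, and 0 were lower with the ACTB covariate (1 unadjusted). Other laminin receptors and tetraspanins had 2 higher with the mean of probe sets or the trended prior, and 0 with the ACTB covariate (3 unadjusted).

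The replicate numbers are shared by the groups, but same-numbered arrays did not deviate together (correlations of -0.05, -0.01 and -0.05), and no array correlated best with its own number. With the replicate number as a block, members numbered 1 higher and 3 lower by gene and 1 higher and 4 lower by probe set, all tested genes 568 higher and 336 lower, all probe sets 664 and 377, and no other basement membrane gene was lower (0 with limma, 3 at an unadjusted p under 0.05).

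Leaving out 1 array in turn gave these ranges. Members by gene ran from 0 to 8 higher and 0 to 5 lower, and by probe set from 0 to 7 higher and 1 to 5 lower. All tested genes ran from 296 to 1140 higher and 262 to 934 lower, and all probe sets from 309 to 1537 and 247 to 1246. Adhesion complex genes higher ran from 0 to 2, other basement membrane genes from 0 to 1 higher and 0 to 2 lower, other laminin receptors and tetraspanins from 1 to 3 higher, and integrin ligands from 0 to 2 lower. The ACTB 3' minus 5' difference ran from 0.31 to 0.57 and that of GAPDH from 0.08 to 0.11.

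Of the values of single members under the alternatives, 341 kept direction and side of the threshold, 44 lost and 14 gained the call, and 12 turned sign, none of them past the threshold. ITGB3 was 0.22 with the mean of probe sets, 0.44 with the most variable one and 0.14 with the ACTB covariate. LAMA4 was -0.0024 with the most variable probe set. Without 1 array, ITGA10 ran from -0.80 to 0.0493, ITGB3 ran from -0.50 to 0.13, ITGB5 ran from -0.0101 to 0.24, LAMA5 ran from -0.23 to 0.15 and LAMB1 from -0.0349 to 0.0962. The cause of these shifts was not tested.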
